A study of Homo sapiens with 8 samples.

Results

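The 53 genes described here encode the proteins that copy nuclear DNA and that make its deoxynucleotide building blocks. They were chosen by name, as rows whose Ensembl identifier maps in GENCODE release 29 to a listed symbol, and all 53 were found among the 66206 genes of each of 2 expression tables. They fall into 7 groups by role: origin licensing (9 genes), the replicative helicase (13), origin firing and fork protection (6), DNA polymerases and primase (9), the sliding clamp and its loader (6), Okazaki fragment maturation with the single-strand binding protein RPA (5), and deoxynucleotide supply (5).

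RNA sequencing was carried out on A549, a human lung adenocarcinoma cell line, in 8 libraries that form 4 groups of 2. All cells were transfected with RNA-iMAX, a lipid reagent. LY6K-AS, an antisense long non-coding RNA of the LY6K locus, was targeted with 25 pmol of a locked nucleic acid (LNA) oligonucleotide, beside a scramble LNA at the same dose. YWHAG, which encodes the 14-3-3 gamma protein, was targeted with siRNA at 40 pmol, beside 40 pmol of scramble siRNA. LY6K-AS knockdown libraries 1 and 2 bear the titles LNA1 and LNA3, and the YWHAG libraries si1 and si2, so each pair may hold separate reagents, which the labels do not settle. Separate cultures within a group are not stated either, and the p-values then measure no more than the spread among these libraries, which may be technical. The series title sets the question, which is the role of LY6K-AS in the progression of mitosis.

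The implied depth was 26.2 to 34.0 M reads (M, 1e6) in the LNA libraries and 33.7 to 34.6 M in the siRNA libraries. The targeted RNAs were lower in the libraries labelled as knockdowns. LNCOC1, annotated as the antisense gene of LY6K, had 34 and 17 reads in LNA controls 1 and 2 and 3 and 8 reads in the knockdown libraries, under the level needed for a test. YWHAG stood at 163 and 158 RPKM (reads scaled to exon length in kilobases and to library total) in siRNA controls 2 and 3 and at 13.5 and 4.91 RPKM after its siRNAs. In the LNA libraries YWHAG stood at 143 and 145 RPKM in the controls and at 133 and 101 RPKM after LY6K-AS knockdown. LNCOC1 had 35 and 30 reads in siRNA controls 2 and 3 and 14 and 42 reads after YWHAG knockdown. All 6 lung epithelial markers (EPCAM, CDH1 and keratins) were expressed, with summed levels of 1275 to 1285 RPKM in the LNA controls and 1505 to 1523 RPKM after LY6K-AS knockdown, and 853 to 939 against 1167 to 1222 RPKM in the siRNA table; the part of this higher sum in the results was not tested. At 0.5 RPKM or more stood 1 of 6 immune markers in each table, 1 of 6 fibroblast markers in the LNA table and 2 of 6 in the siRNA table, and 0 of 5 endothelial markers in either. The T cell marker CD3E was at 0 reads in all 8 libraries.

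As background, a replication origin is licensed in G1 when the origin recognition complex, CDC6 and CDT1 load the ring-shaped MCM2 to MCM7 helicase onto DNA. In S phase the kinase CDC7 with DBF4 and the cyclin-dependent kinases start the helicase by adding CDC45 and the GINS complex, and polymerases alpha, delta and epsilon then copy the strands. Many of these genes are transcribed in late G1 and S phase under E2F factors, so their RNA in a culture is widely used as a sign of how many cells are entering or passing S phase.

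After LY6K-AS knockdown, 52 of the 53 replication genes had a lower mean than in the LNA controls, with a median log2 change of -0.66. The largest differences were in POLA1, RRM2, ORC6 and RRM1, and the polymerase delta subunits POLD1 and POLD2 stood near their control level. The 52 genes compare with 49.7% of the 14662 genes tested, whose median change was 0.00; the count was 53 with median-ratio scaling, with totals that leave out mitochondrially encoded genes and with the GC trend removed, where POLD2 turned from 0.02 to values between -0.14 and -0.000526. In 51 of the 53 genes both knockdown libraries lay below both controls, against 30.5% of all genes tested. The exceptions were POLD2 and GINS4. In none of the 53 did both lie above, against 31.4% of all genes.

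No gene of the 14662 passed the test (limma on log2(RPKM + 1), two-sided, Benjamini-Hochberg adjusted p under 0.05; 0% called), and the smallest adjusted p was 0.103. At an unadjusted p under 0.05, 45 of the 53 genes were lower and 0 higher, where 11.7% of all genes were lower and 13.6% higher. With the spread estimated over all 8 libraries, 64 of 12861 genes passed (0.498%), among them RRM2 and POLA1. Without LY6K-AS knockdown library 1, 49 of the 53 genes passed (55.3% of all genes did), and without knockdown library 2, 48 did (32.4% of all genes); in both fits the lone knockdown library was assumed to vary like the controls, whose values lie close together. In a bulk sample, fewer cells in S phase and less of each RNA per cell cannot be told apart.

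**Figure D1:**
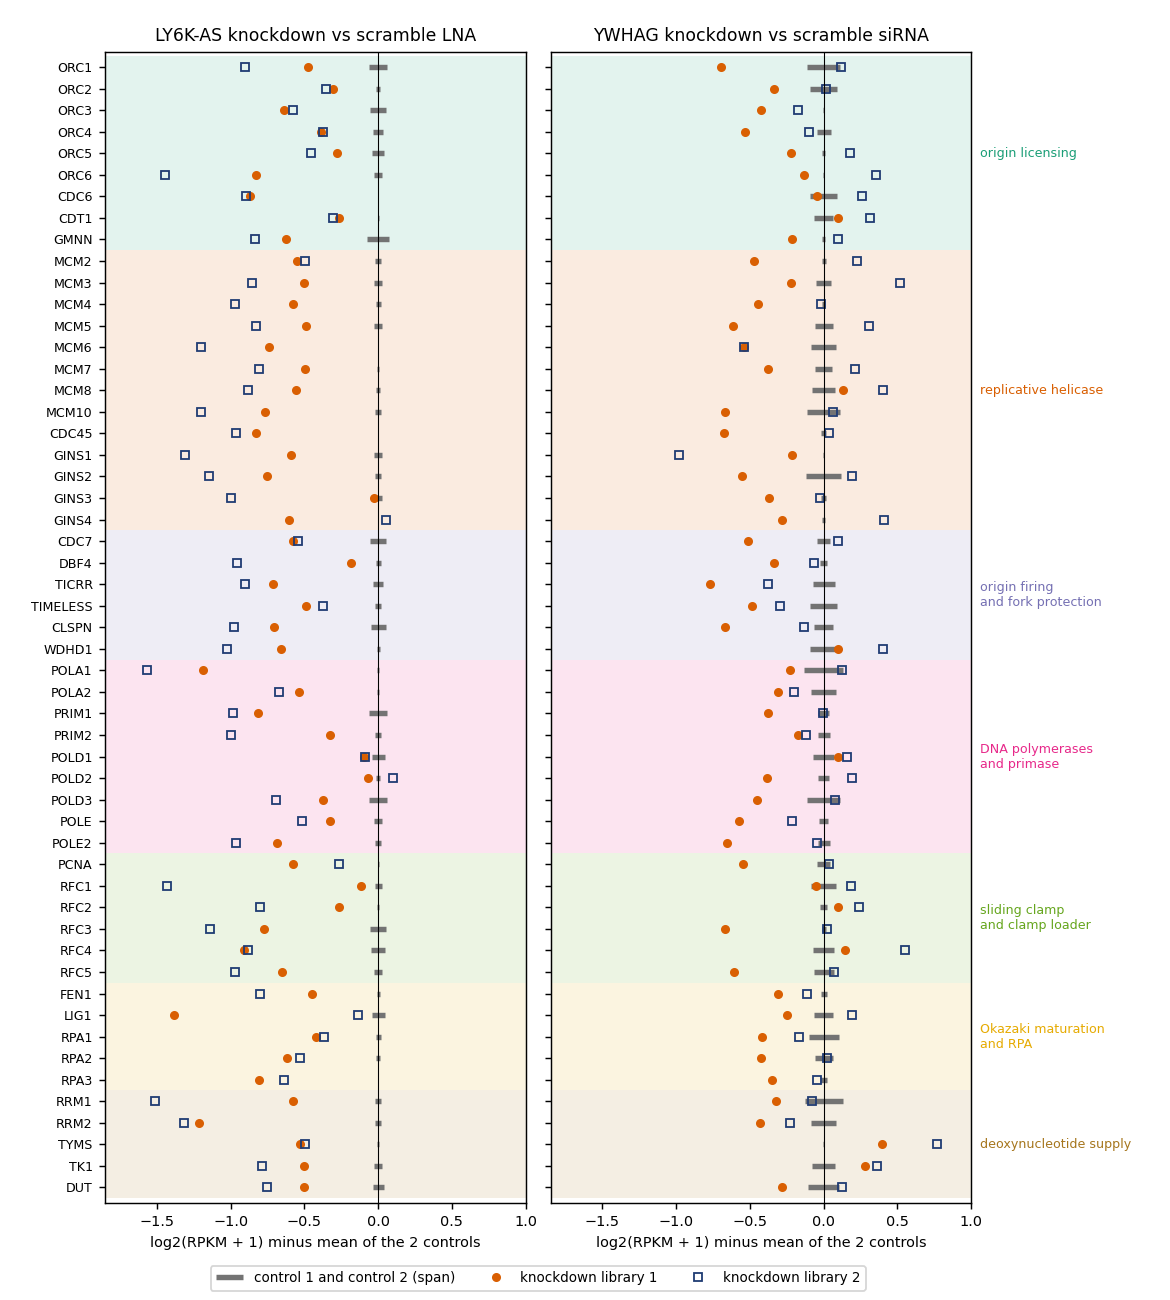
Each row is 1 gene, coloured by role; the horizontal axis is log2(RPKM + 1) minus the mean of the 2 controls of the same table, with the grey bar spanning the controls, filled circles for knockdown library 1 and open squares for knockdown library 2. On the left nearly all points lie below 0; on the right circles lie left of squares in 51 of 53 genes, on both sides of 0.

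The upstream sequence of the genes was read from RefSeq (GRCh38.p14), which held a promoter entry for 47 of the 53. Where a gene had several entries, a match before any of its starts was counted. In the 250 bases before the annotated start, one of the 4 E2F patterns TTTCCCGC, TTTGGCGC, TTTCGCGC and TTTGCCGC, on either strand, was present in 16 of the 47 genes (34.0%), against 3.40% of the 27305 genes with an entry. The CCAAT box (letters CCAAT, either strand) was present in 28 of 47 (59.6%), against 37.0%. The letters TTTGAA of the cell cycle homology region (CHR, either strand), an element of many G2 and mitosis genes, were present in 2 (4.26%), DUT and RRM1, against 16.1%. An E2F pattern and a CCAAT box can overlap at their ends, and the mean GC content of the windows was 64.1%, against 57.2% over all promoters, which itself changes how often such letters occur. Genes with an E2F pattern had a median log2 change of -0.64 after LY6K-AS knockdown (n = 16) and those without one -0.72 (n = 31), and the ranges overlapped over most of their length (-1.38 to -0.29 and -1.27 to 0.02). Only these exact letters were searched, so the genes without a match may hold variants of the site. The comparison therefore cannot show whether E2F sites relate to the change.

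Upstream stretches are printed for 4 genes with E2F patterns and for RRM1, a gene with a large difference and no exact match. CDC7 and GMNN have 2 promoter entries each, and the stretch shown precedes a start inside the gene. Their GENCODE spans begin at chr1:91500893 and chr6:24774931, before the stretches. Each is the longest run of the 250-base window that holds no annotated exon, 5′ to 3′ on the strand of the gene, with matches to an E2F pattern or CCAAT box in capitals. The stretch of POLA1 lies at chrX:24693668-24693917 (plus strand), that of MCM6 at chr2:135876444-135876693 (minus strand), that of CDC7 at chr1:91500949-91501107 (plus strand), that of GMNN at chr6:24775245-24775412 (plus strand) and that of RRM1 at chr11:4094435-4094684 (plus strand).
POLA1: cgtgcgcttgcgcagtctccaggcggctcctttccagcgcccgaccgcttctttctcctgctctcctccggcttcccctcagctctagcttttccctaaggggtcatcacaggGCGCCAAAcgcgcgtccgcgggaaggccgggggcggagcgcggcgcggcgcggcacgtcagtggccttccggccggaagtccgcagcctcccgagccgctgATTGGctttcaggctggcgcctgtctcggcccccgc
MCM6: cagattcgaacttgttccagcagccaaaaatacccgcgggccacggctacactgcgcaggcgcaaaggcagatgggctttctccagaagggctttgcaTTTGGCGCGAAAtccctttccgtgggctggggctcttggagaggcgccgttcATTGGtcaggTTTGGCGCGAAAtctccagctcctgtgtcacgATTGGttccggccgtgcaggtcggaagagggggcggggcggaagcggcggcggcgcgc
CDC7: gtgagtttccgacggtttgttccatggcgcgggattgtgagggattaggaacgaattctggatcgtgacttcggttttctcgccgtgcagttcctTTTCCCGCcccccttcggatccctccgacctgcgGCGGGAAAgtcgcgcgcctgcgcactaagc
GMNN: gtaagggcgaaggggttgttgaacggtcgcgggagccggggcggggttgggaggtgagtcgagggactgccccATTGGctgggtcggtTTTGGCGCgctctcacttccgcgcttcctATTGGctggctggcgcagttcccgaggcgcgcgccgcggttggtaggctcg
RRM1: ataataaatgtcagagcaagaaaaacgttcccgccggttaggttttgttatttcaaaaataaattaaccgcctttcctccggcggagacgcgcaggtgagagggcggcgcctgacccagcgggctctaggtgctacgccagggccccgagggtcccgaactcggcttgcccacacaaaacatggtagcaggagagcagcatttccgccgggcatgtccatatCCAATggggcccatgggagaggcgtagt
In POLA1 the E2F pattern begins 137 bases and the CCAAT box 36 bases before the start. MCM6 holds 4 E2F matches, which overlap in pairs at 152 and 148 and at 90 and 86 bases before the start, with CCAAT boxes at 100 and 58. CDC7 has E2F matches at 68 and 34 bases before the inner start and no CCAAT box. RRM1 has a CCAAT box at 28 bases and no E2F match. Its CHR letters are not in capitals. These matches describe the letters and are not measured binding sites.

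All 9 licensing genes were lower after LY6K-AS knockdown (49.7% of all genes were), with a median log2 change of -0.61. All 9 had an unadjusted p under 0.05 (11.7% of all genes were lower at that p). CDC6 (ENSG00000094804.9, chr17:40287633-40304657, hg38), the ATPase that helps load the helicase, stood at 21.3 and 21.3 RPKM in LNA controls 1 and 2 and at 11.2 and 11.0 RPKM in the knockdown libraries. The groups were far apart and each was tight: the log2 change was -0.88 ± 0.08 (SE; limma adjusted p = 0.103). ORC6, the smallest origin recognition subunit, went from 8.34 and 7.98 RPKM in the controls to 4.16 and 2.36 RPKM, the largest difference of the group at -1.14 ± 0.23. ORC3 stood at 7.06 and 6.48 RPKM against 4.0 and 4.21 RPKM. The other origin recognition subunits ranged from -0.69 in ORC1 to -0.33 in ORC2. The licensing factor CDT1 and its inhibitor geminin (GMNN) were lower by unequal amounts. CDT1 stood at 19.0 and 19.1 RPKM in the controls and at 15.7 and 15.2 RPKM after knockdown, and GMNN at 16.8 and 15.1 against 9.98 and 8.47 RPKM. The ratio of CDT1 to GMNN RPKM was thus 1.13 and 1.27 in the controls and 1.57 and 1.80 after knockdown, without overlap. GC content was 65.8% in CDT1 and 41.4% in GMNN, and its part in this ratio was not tested.

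All 13 helicase genes were lower (49.7% of all genes were), with a median of -0.72. Of them, 11 had an unadjusted p under 0.05 (11.7% of all genes were lower at that p). The 6 ring subunits MCM2 to MCM7 had a median of -0.67 and CDC45 with the 4 GINS genes a median of -0.90. MCM2, a subunit of the ring, stood at 35.1 and 36.2 RPKM in the controls and at 24.0 and 25.0 RPKM after knockdown. MCM6 (ENSG00000076003.4, chr2:135839626-135876426) stood at 44.9 and 44.9 RPKM against 26.5 and 18.9 RPKM, the largest difference of the ring at -0.97 ± 0.18. MCM7, the most abundant subunit, was at 115 and 113 RPKM in the controls and at 80.6 and 64.6 RPKM after knockdown. The ring subunits thus differed from their controls by unequal amounts, with log2 changes from -0.97 to -0.52. CDC45, which joins the ring at firing, stood at 17.8 and 17.8 RPKM in the controls and at 9.61 and 8.63 RPKM after knockdown (-0.90 ± 0.09). GINS2 stood at 17.5 and 17.0 RPKM against 9.80 and 7.24 RPKM (-0.95 ± 0.16). Both genes, picked for small p, had tight controls and no overlap, where 30.5% of all genes lay below both controls. MCM10, which helps start the helicase, was lower by 0.98 on the log2 scale, and MCM8, a helicase of recombination repair, by 0.72.

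The GINS subunits GINS3 and GINS4 behaved differently in the 2 knockdown libraries. GINS3 stood at 4.10 and 4.30 RPKM in the controls, 4.09 RPKM in knockdown library 1 and 1.60 RPKM in library 2. GINS4 stood at 7.53 and 7.54 RPKM in the controls, 4.61 RPKM in library 1 and 7.87 RPKM in library 2. Each gene was therefore near its control level in 1 library and lower in the other, and neither had an unadjusted p under 0.05 (0.203 and 0.313, limma).

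The 6 genes of origin firing and fork protection were lower (49.7% of all genes were), with a median of -0.69. Of them, 5 had an unadjusted p under 0.05 (11.7% of all genes were lower at that p). CDC7, the kinase that fires origins, stood at 4.57 and 5.02 RPKM in the controls and at 2.88 and 2.98 RPKM after knockdown. Its activating subunit DBF4 stood at 4.07 and 3.95 RPKM against 3.41 and 1.58 RPKM, so that knockdown library 2 carried most of the difference. TICRR, a firing factor also called treslin, stood at 6.59 and 6.94 RPKM in the controls and at 3.73 and 3.16 RPKM after knockdown (-0.81 ± 0.11). CLSPN, the fork protein claspin, stood at 8.80 and 9.52 RPKM against 5.22 and 4.15 RPKM. Neither TICRR nor CLSPN, both picked for small p, overlapped between the groups, where 30.5% of all genes lay below both controls. The fork protein TIMELESS was lower by 0.43, and WDHD1, which couples polymerase alpha to the helicase, by 0.84.

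Polymerase genes differed most among themselves. The 9 genes had a median of -0.60, with 8 lower (49.7% of all genes were) and 1 higher. An unadjusted p under 0.05 was found in 7, all lower (11.7% of all genes were lower at that p). The 4 subunits of polymerase alpha-primase, which makes the primers, had a median of -0.78, the 2 epsilon subunits -0.62 and the 3 delta subunits -0.09. Their mean GC content was 43.6%, 46.7% and 56.2%, and its part in this order was not tested. POLA1 (ENSG00000101868.10, chrX:24693919-24996986), the catalytic subunit of polymerase alpha, stood at 9.88 and 10.0 RPKM in the controls and at 3.80 and 2.69 RPKM after knockdown. The knockdown mean was 0.326 of the control mean, the largest difference of the 53 genes (-1.38 ± 0.16, limma adjusted p = 0.103). POLA2, its regulatory subunit, stood at 10.7 and 10.8 RPKM against 7.09 and 6.37 RPKM. PRIM1, the primase subunit that makes the RNA primer, stood at 11.4 and 10.4 RPKM against 5.75 and 5.0 RPKM. The subunits of this 1 complex thus stood at unequal distances from their controls: the ratio of POLA1 to POLA2 RPKM was 0.926 in both controls and 0.536 and 0.422 after knockdown.

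POLD1, the catalytic subunit of polymerase delta, stood at 36.7 and 39.1 RPKM in the controls and at 35.5 and 35.6 RPKM after knockdown (-0.09 ± 0.09). POLD2, its accessory subunit, stood at 56.1 and 57.2 RPKM in the controls and at 54.1 and 60.9 RPKM after knockdown (0.02 ± 0.10), with the controls inside the range of the knockdown libraries. POLD3 stood apart from both at -0.53 ± 0.15. For POLD1 and POLD2 a change was not shown, and the SE leaves room for a small one. The ratio of POLD1 to POLA1 RPKM, each per length, was 3.72 and 3.91 in the controls and 9.32 and 13.2 after knockdown. GC content was 64.6% in POLD1 and 42.4% in POLA1, and its part in this ratio was not tested. In polymerase epsilon, POLE2 was lower by 0.82 and the catalytic subunit POLE by 0.42.

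The clamp and clamp loader genes had the lowest median of the 7 groups, -0.79. An unadjusted p under 0.05 was found in 4 of the 6 (11.7% of all genes were lower at that p). The order of the group medians may depend on the settings, since deoxynucleotide supply was at -0.65 here and at -0.86 with the GC trend removed. PCNA, the sliding clamp and the most abundant of the 53 RNAs, stood at 231 and 229 RPKM in the controls and at 154 and 191 RPKM after knockdown. The loader subunits RFC1 to RFC5 had a median of -0.81. RFC4 (ENSG00000163918.10, chr3:186789880-186807058) stood at 16.5 and 15.4 RPKM in the controls and at 8.03 and 8.17 RPKM after knockdown (-0.90 ± 0.09). RFC3 stood at 16.2 and 14.9 RPKM against 8.69 and 6.51 RPKM, and RFC5 at 13.9 and 14.4 against 8.65 and 6.75 RPKM. These 3 small subunits, picked for the smallest p of the group, had no overlap between knockdown and control libraries. Over all genes, 30.5% lay below both controls. RFC4 shares exonic bases with EIF4A2 on the other strand, whose log2 change was -0.05.

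The 5 genes of Okazaki fragment maturation and RPA had a median of -0.62. FEN1, the flap nuclease, stood at 53.1 and 53.9 RPKM in the controls and at 38.9 and 30.3 RPKM after knockdown. The RPA subunits, which coat single-stranded DNA, were ordered by their number. RPA1 stood at 37.6 and 36.7 RPKM against 27.5 and 28.5 RPKM, RPA2 at 22.3 and 21.8 against 14.0 and 15.0 RPKM, and RPA3 at 9.86 and 9.84 against 5.19 and 5.98 RPKM. All 3 lay below their controls in both libraries (30.5% of all genes did), with log2 changes of -0.39, -0.57 and -0.72.

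All 5 deoxynucleotide genes were lower (49.7% of all genes were), with a median of -0.65. All 5 had an unadjusted p under 0.05 (11.7% of all genes were lower at that p). RRM2 (ENSG00000171848.13, chr2:10120698-10131419), the small subunit of ribonucleotide reductase, which makes deoxynucleotides from ribonucleotides, stood at 47.5 and 48.8 RPKM in the controls and at 20.2 and 18.7 RPKM after knockdown. The log2 change was -1.27 ± 0.09, with the smallest unadjusted p of the 53 genes (8.75e-05; limma adjusted p = 0.103). RRM1, the large subunit, stood at 35.5 and 34.6 RPKM in the controls and at 23.2 and 11.6 RPKM after knockdown. The ratio of RRM2 to RRM1 RPKM was 1.34 and 1.41 in the controls, 0.870 in knockdown library 1 and 1.61 in library 2, so the balance of the 2 subunits moved in opposite directions in the 2 libraries. TYMS (ENSG00000176890.15, chr18:657604-673578), thymidylate synthase, stood at 31.5 and 31.2 RPKM against 21.4 and 21.9 RPKM. DUT, which removes dUTP, stood at 15.4 and 16.3 RPKM against 10.9 and 9.02 RPKM. The thymidine kinase TK1 was the most abundant of the group, at 130 and 135 RPKM in the controls and at 93.0 and 76.2 RPKM after knockdown.

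**Figure D2:**
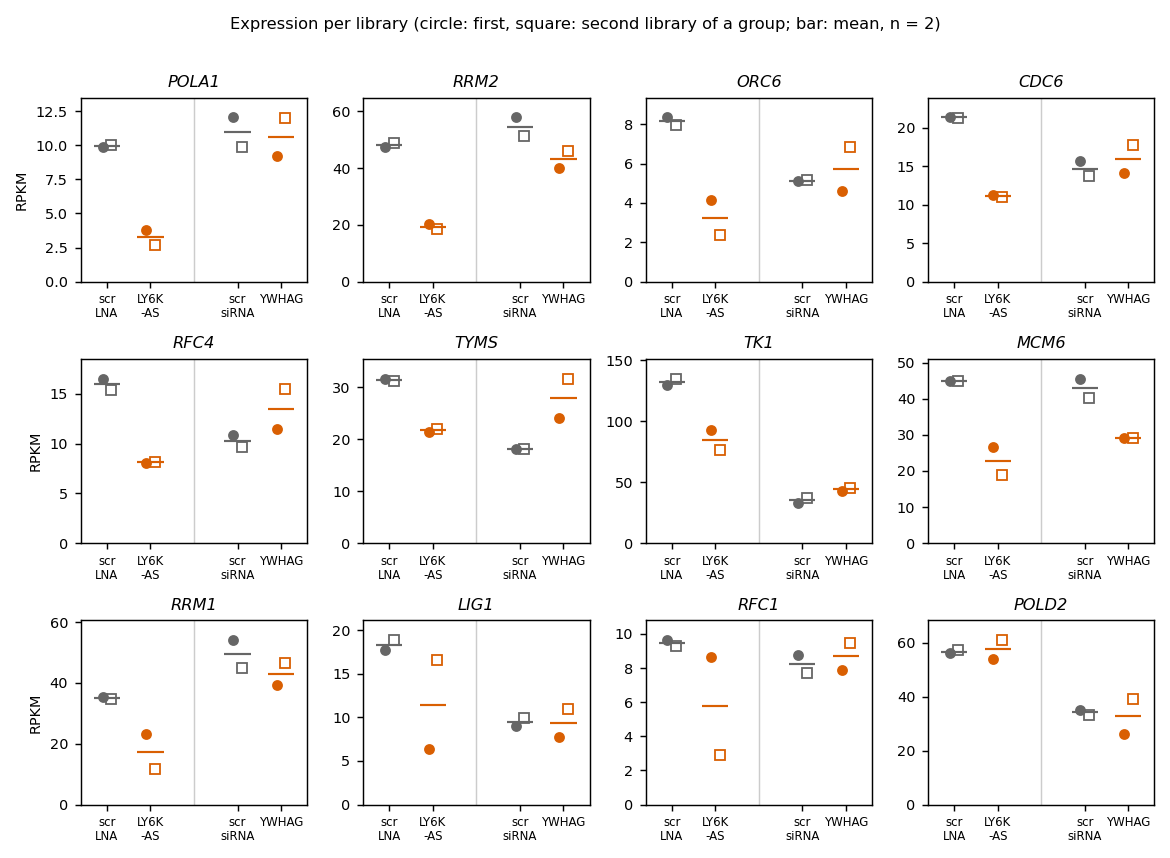
RPKM per library of 12 genes (vertical axis from 0), with circles for the first and squares for the second library of each group and a bar at the mean (n = 2); the siRNA groups stand right of the grey line because their table was normalized separately. POLA1, RRM2 and CDC6 show tight, separate LNA groups, RFC1 and LIG1 show knockdown libraries far apart, and POLD2 overlaps.

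The 2 LY6K-AS knockdown libraries were further apart than the controls. The median distance between them was 0.28 on the log2 scale over the 53 genes, against 0.04 between the controls. The same distance over all genes is not given here. Library 1 was the higher in 38 of the 53 genes and in 7027 of the 14662 genes tested. The median change was -0.57 in library 1 (53 genes below the control mean, where 50.3% of all genes were) and -0.84 in library 2 (51 genes, where 48.3% were). In 2 of the 53 genes the libraries were apart by at least 1 log2 unit, against 2.5% of all genes. RFC1, the large loader subunit, stood at 9.63 and 9.30 RPKM in the controls, 8.67 RPKM in library 1 and 2.89 RPKM in library 2. LIG1, the ligase that seals Okazaki fragments, went the other way, at 17.7 and 18.9 RPKM in the controls, 6.39 RPKM in library 1 and 16.6 RPKM in library 2. Neither had an unadjusted p under 0.05. The mitochondrially encoded share of the RPM also differed, 8.37% in library 1 and 4.12% in library 2, against 8.43% and 6.43% in the controls, and its part in these differences was not tested.

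**Figure D3:**
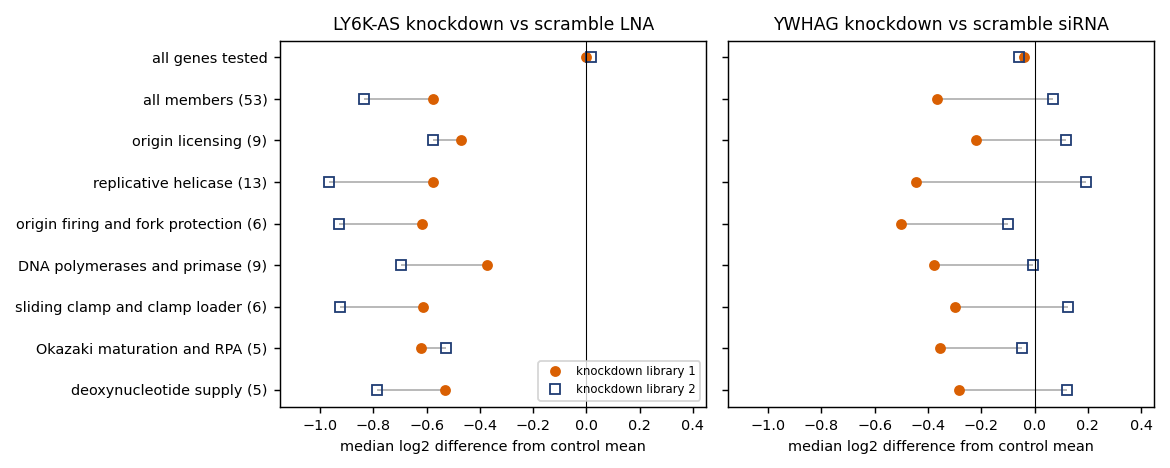
Median log2 difference from the control mean for each role group (number of genes in brackets) and for all genes tested, as a circle for knockdown library 1 and a square for library 2. On the left every role group lies between -0.97 and -0.37 in both libraries; on the right library 2 lies to the right of library 1 in every group and crosses 0 in 4 of the 7.

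After YWHAG knockdown the replication genes did not share a direction. Of the 53, 40 had a lower mean than in the siRNA controls and 13 a higher one (37 lower with median-ratio scaling), where 57.6% of the 13903 genes tested were lower. The median log2 change was -0.19, beside -0.05 over all genes. Without YWHAG knockdown library 1 the median was 0.07 and without library 2 it was -0.37. No gene of the table passed the test (0% called; smallest adjusted p 0.130, limma); at an unadjusted p under 0.05, 3 of the 53 were lower (8.9% of all genes) and 1 was higher (7.51% of all genes).

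The YWHAG libraries were ordered in nearly every gene. Library 1 lay below library 2 in 51 of the 53 genes, against 49.3% of all genes tested; MCM6 and GINS1 were the exceptions. Library 1 was below the control mean in 45 genes (54.8% of all genes), with a median of -0.37, and library 2 in 20 genes (57.5% of all genes), with a median of 0.07. In 0 of the 53 genes were the libraries apart by 1 log2 unit or more (3.6% of all genes). Both libraries lay below both controls in 18 genes (30.8% of all genes) and above both in 8 (20.4% of all genes). YWHAG itself was at 13.5 RPKM in library 1 and 4.91 RPKM in library 2, and the mitochondrially encoded share was 14.0% and 18.2%, against 15.3% and 18.2% in the controls; the part of either in this order was not tested.

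MCM6 had the smallest unadjusted p of the 53 genes in this comparison. It stood at 45.5 and 40.3 RPKM in siRNA controls 2 and 3 and at 29.2 and 29.1 RPKM after knockdown (-0.54 ± 0.13, limma adjusted p = 0.234). Of the other ring subunits, MCM4 also lay below both controls in each library, at 29.9 and 29.4 RPKM against 21.5 and 29.3 RPKM, and the remaining 4 did not. MCM3 stood at 36.7 and 34.2 RPKM in the controls, 30.2 RPKM in library 1 and 51.2 RPKM in library 2. GINS1 stood at 11.4 and 11.5 RPKM against 9.71 and 5.28 RPKM, the only GINS gene with library 2 the lower. GINS4, by contrast, was at 4.40 and 4.49 RPKM in the controls and at 3.48 and 6.23 RPKM after knockdown. MCM8 was above its controls in both libraries, at 9.99 and 8.88 RPKM against 10.4 and 12.8 RPKM. Among all genes, 20.4% lay above both controls and 30.8% below both.

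Firing factors were the group with the lowest median, -0.30. TICRR stood at 7.54 and 6.70 RPKM in the controls and at 3.74 and 5.26 RPKM after knockdown (-0.57 ± 0.18, limma adjusted p = 0.269). TIMELESS stood at 20.2 and 17.7 RPKM against 13.3 and 15.3 RPKM, also without overlap (30.8% of all genes lay below both controls). CLSPN was at 5.65 and 5.09 RPKM in the controls and at 3.01 and 4.81 RPKM after knockdown. WDHD1 went against its group, at 6.47 and 5.58 RPKM in the controls and at 6.5 and 8.25 RPKM after knockdown.

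Licensing genes had a median of -0.06, with 6 lower and 3 higher (57.6% of all genes were lower). ORC3 stood at 12.8 and 12.9 RPKM in the controls and at 9.31 and 11.3 RPKM after knockdown, and ORC4 at 4.90 and 5.29 against 3.20 and 4.68 RPKM. Both subunits were lower in each library (30.8% of all genes lay below both controls). The 3 with a higher mean were ORC6, CDC6 and CDT1. ORC6 stood at 5.12 and 5.15 RPKM against 4.59 and 6.83 RPKM, and CDC6 at 15.6 and 13.7 against 14.2 and 17.7 RPKM, so that the groups overlapped in both. CDT1 stood at 6.29 and 6.94 RPKM against 7.12 and 8.45 RPKM, with no overlap (20.4% of all genes lay above both controls).

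Among the polymerases the median was -0.19, and POLD1 was the 1 gene of 9 with a higher mean (57.6% of all genes were lower). POLE, the catalytic subunit of polymerase epsilon, stood at 6.85 and 6.53 RPKM in the controls and at 4.17 and 5.62 RPKM after knockdown. POLA2 stood at 8.22 and 7.20 RPKM against 6.02 and 6.56 RPKM, and POLE2 at 7.0 and 6.56 against 3.94 and 6.55 RPKM. These 3, picked for the smallest p of the group, lay below both controls in each library (30.8% of all genes did). POLD1 stood at 8.72 and 9.70 RPKM against 9.89 and 10.4 RPKM. POLA1, with the largest difference after LY6K-AS knockdown, was at 12 and 9.85 RPKM in the siRNA controls and at 9.17 and 12 RPKM after YWHAG knockdown (-0.05 ± 0.19), and the groups overlapped.

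The clamp loader divided by subunit. RFC4 stood at 10.8 and 9.68 RPKM in the controls and at 11.5 and 15.5 RPKM after knockdown. RFC2 stood at 18.0 and 18.6 against 19.6 and 21.7 RPKM. Both genes were above both controls in each library, as were 20.4% of all genes. RFC1 stood at 8.79 and 7.69 RPKM against 7.88 and 9.47 RPKM, which overlapped. RFC3 was at 18.1 and 18.5 RPKM in the controls, 11.1 RPKM in library 1 and 18.6 RPKM in library 2. RFC5 was likewise low in library 1 alone, at 16.8 and 15.3 RPKM in the controls and at 10.2 and 16.9 RPKM after knockdown. PCNA had a log2 change of -0.25 ± 0.22.

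The 5 genes of Okazaki maturation and RPA had means below their controls (57.6% of all genes were lower), with a median of -0.20. FEN1 stood at 44.7 and 43.4 RPKM in the controls and at 35.4 and 40.6 RPKM after knockdown, RPA1 at 43.7 and 37.8 against 30.1 and 36.0 RPKM, and RPA3 at 13.4 and 13.9 against 10.5 and 13.2 RPKM. None of these 3, picked for the smallest p of the group, overlapped its controls (30.8% of all genes lay below both). None had an unadjusted p under 0.05.

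The 2 enzymes that make thymidine nucleotides stood above their controls in both libraries, while RRM2 stood below. Of all genes tested, 20.4% lay above both controls and 30.8% below both. TYMS, the de novo enzyme, was at 18.2 and 18.1 RPKM in the controls and at 24.1 and 31.6 RPKM after YWHAG knockdown. The log2 change was 0.58 ± 0.17, the only unadjusted p under 0.05 among higher genes (0.0193; limma adjusted p = 0.256). TK1, the salvage enzyme, was at 33.3 and 37.2 RPKM against 42.9 and 45.5 RPKM (0.32 ± 0.13, adjusted p = 0.325). RRM2 was at 57.8 and 51.1 RPKM in the controls and at 40.1 and 46.2 RPKM after knockdown (-0.33 ± 0.15, adjusted p = 0.346). Its partner RRM1 overlapped its controls, at 54.1 and 45 RPKM against 39.3 and 46.7 RPKM. TYMS shares exonic bases with ENOSF1 and TYMSOS, whose log2 changes were -0.10 and 0.62 in the siRNA table and -0.16 and 0.42 in the LNA table. TYMSOS was at 0.892 to 3.52 RPKM in the siRNA libraries, well below TYMS.

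The difference between the 2 knockdown effects was tested in 1 fit over all 8 libraries and the 12861 genes that passed the filter in both tables. Of these, 23 passed (adjusted p under 0.05, 0.179% called), and 0 of the 53 replication genes were among them. At an unadjusted p under 0.05 the effect of LY6K-AS knockdown was the more negative in 15 of the 53 genes, against 8.86% of all genes, and the reverse held in 0. The difference was below 0 in 52 of the 53, against 45.7% of all genes, with a median of -0.51 beside 0.04. POLD2 was the exception.

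RFC4 came closest, with a difference of -1.25 ± 0.22 (limma adjusted p = 0.0682), followed by TYMS (-1.09 ± 0.20, adjusted p = 0.0747) and RRM2 (-0.94 ± 0.18, adjusted p = 0.0752). CDC6, POLA1 and TK1 shared an adjusted p of 0.0756, with differences of -0.99, -1.33 and -0.97. WDHD1 and MCM8 followed at 0.0929 and 0.0939. Without LY6K-AS knockdown library 1, 13 of the 53 genes passed (9.43% of all genes did), and without YWHAG library 1, 12 did (5.69%). Without YWHAG library 2, 4 passed, RRM2, RFC4, CDC6 and TYMS, a share near the 5.83% of all genes; the same 4 were among those passing in the other two fits. With any other single library left out, none of the 53 passed.

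In 8 genes both LY6K-AS knockdown libraries lay below their controls and both YWHAG libraries above theirs: CDT1, MCM8, WDHD1, POLD1, RFC2, RFC4, TYMS and TK1. This pattern was seen in 6.1% of all genes in both tables. In 18 genes both knockdown pairs lay below their controls, against 11.7% of all genes. They include MCM6, GINS1, TICRR, TIMELESS, CLSPN, POLA2, POLE, FEN1, RPA1, RPA3 and RRM2. Because 51 of the 53 genes lay below in the LY6K-AS pair, both counts equal those of the YWHAG pair alone. In that pair 20.4% of all genes lay above both controls and 30.8% below both. The joint counts therefore add nothing beyond the YWHAG pair. Across the 53 genes the 2 effects were weakly related (Pearson r = 0.16, Spearman rho = 0.19, n = 53 genes). The genes share libraries, and the 2 knockdowns share no control sample.

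**Figure D4:**
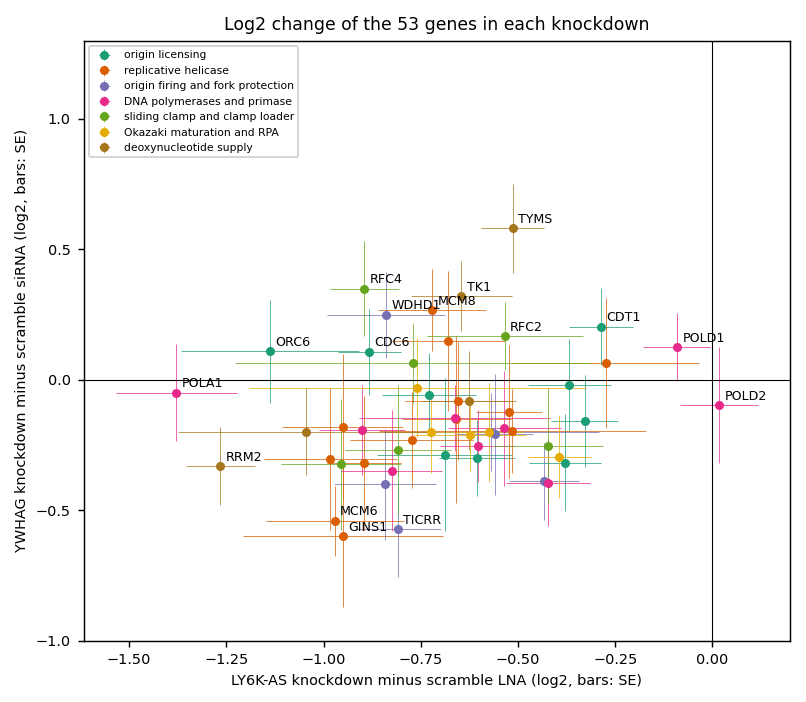
Log2 change of each of the 53 genes after LY6K-AS knockdown (horizontal axis) and after YWHAG knockdown (vertical axis), coloured by role, with bars for the standard error. The cloud lies left of 0 with POLD2 at 0.02, and spreads to both sides of 0 vertically, with TYMS highest at 0.58 and GINS1 lowest at -0.60.

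Other genes of the same pathways were lower after LY6K-AS knockdown by smaller medians on the log2(RPKM + 1) scale. That scale understates changes of low genes such as MMS22L, and its part in the smaller medians was not tested. Among 22 further replisome genes 21 were lower (median -0.38), with 14 lower and 1 higher at an unadjusted p under 0.05. Over all genes tested 49.7% were lower, and at that p 11.7% were lower and 13.6% higher. PCLAF, a PCNA-binding protein, stood at 6.81 and 6.85 RPKM in the controls and at 3.51 and 2.50 RPKM after knockdown. MMS22L, a fork repair protein, stood at 1.27 and 1.25 against 0.503 and 0.432 RPKM, and DBF4B, a second activator of CDC7, at 8.55 and 8.75 against 5.68 and 5.01 RPKM. The 1 higher gene was POLD4, the smallest subunit of polymerase delta, at 7.0 and 7.13 RPKM in the controls and at 10.8 and 9.83 RPKM after knockdown (0.49 ± 0.09, limma adjusted p = 0.108). POLD4 was thus the second delta subunit, after POLD2, whose mean was not lower.

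The 13 genes of replication-coupled chromatin assembly were all lower (49.7% of all genes were), with a median of -0.58. Of them, 10 had an unadjusted p under 0.05 (11.7% of all genes were lower at that p). HELLS, a chromatin remodeller, stood at 7.20 and 7.62 RPKM in the controls and at 3.41 and 3.42 RPKM after knockdown. The histone chaperone ASF1B stood at 19.3 and 21.4 against 12.1 and 11.3 RPKM, and SUPT16H, a subunit of the FACT chaperone, at 40.2 and 39.6 against 27.9 and 25.1 RPKM. Groups did not overlap in HELLS, ASF1B and SUPT16H, which were picked for the smallest p of the list. Over all genes, 30.5% lay below both controls.

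Of 15 further deoxynucleotide and folate genes 13 were lower (median -0.26), against 49.7% of all genes. At an unadjusted p under 0.05, 8 were lower (11.7% of all genes) and 1 higher (13.6%). The 1 higher gene was RRM2B, at 9.54 and 10.5 RPKM in the controls and at 13.9 and 12.8 RPKM after knockdown. Its log2 change was 0.38 ± 0.10 (limma adjusted p = 0.136), opposite in direction to RRM1 and RRM2. MTHFD2, a mitochondrial folate enzyme, stood at 31.3 and 29.9 RPKM against 19.4 and 17.1 RPKM, and the thymidylate kinase DTYMK at 60.1 and 57.9 against 41.2 and 42.0 RPKM. MTHFD1, its cytosolic relative in the folate pathway, was lower by 0.45. Of 18 genes that make purine and pyrimidine ribonucleotides 16 were lower (median -0.25), against the same 49.7%. In 8 the unadjusted p was under 0.05, all lower (11.7% of all genes). PAICS, a purine synthesis enzyme, stood at 29.2 and 29.2 RPKM against 19.9 and 19.0 RPKM. CTPS1, which makes CTP, was lower by 0.70 and PPAT, the first enzyme of purine synthesis, by 0.42.

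After YWHAG knockdown the same lists had medians from -0.20 to 0.08, beside -0.05 over all genes, of which 57.6% were lower. The further replisome genes had a median of -0.20 (18 of 22 lower) and the replication-coupled chromatin list -0.18 (11 of 13). The deoxynucleotide and folate list was at 0.08 (7 of 15 lower) and ribonucleotide synthesis at -0.17 (13 of 18). POLD4 was again higher, at 2.40 and 3.15 RPKM in the controls and at 4.53 and 4.19 RPKM after knockdown (0.51 ± 0.16, limma adjusted p = 0.259). The nuclease and helicase DNA2 stood at 10.6 and 9.59 RPKM against 4.77 and 7.42 RPKM, and POLE3 was lower by 0.41. The 2 ASF1 chaperones stood on opposite sides of their controls. ASF1A stood at 6.98 and 7.44 RPKM in the controls and at 10.9 and 17.6 RPKM after knockdown, and ASF1B at 12.5 and 12.5 against 7.07 and 9.61 RPKM. NASP, another histone chaperone, was lower by 0.41. PRPS1, which makes the ribose donor of nucleotides, stood at 65.7 and 55.0 RPKM against 37.9 and 30.1 RPKM (-0.81 ± 0.18, adjusted p = 0.209). ADSS, a purine enzyme, was lower by 0.53 and CAD, the first enzyme of pyrimidine synthesis, by 0.39. SHMT2, CMPK1 and DCTD, of folate and pyrimidine metabolism, had log2 changes of 0.37, 0.45 and 0.39.

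The levels behind these values were high enough that counting error was small. Control means of the 53 genes ran from 3.17 RPKM (PRIM2) to 230 RPKM (PCNA) in the LNA table, with a median of 15.9, and from 3.13 RPKM (GINS3) to 215 RPKM (PCNA) in the siRNA table, with a median of 12.8. The fewest reads behind any value were 157, for PRIM2 in an LNA library, and 389, for GINS3 in the siRNA table. Exonic bases were shared with another gene in 24 of the 53 genes, in 6 of them on the same strand, and reads in those stretches could not be assigned with certainty because the counting is not stated to use strand. Some partners stood above the replication gene in the LNA controls. Among these, NACA (strand of PRIM1) changed by -0.21 after LY6K-AS knockdown, FADS2 (strand of FEN1) by -0.05 and GSE1 (opposite GINS2) by 0.10. GC content of the 53 genes was 48.3% on average, against 51% of all genes tested in the LNA table.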

How the data were processed

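RNA sequencing libraries from 4 groups of 2 A549 samples were compared. The authors deposited RPKM values in 2 separately normalized tables; per the submitters' processing notes the tools were STAR, Subread, featureCounts and Picard and the build hg38, without version or role. From the values, the LNA table had been divided by genomic span and the siRNA table by merged exon length (100% of values were whole reads within 0.05 in each), so LNA values were rescaled to exon length and the 9151 genes of 66206 without a GENCODE 29 match were left out of that table's tests. The lengths of RRM2, RFC1, MCM3, MCM4, CDC6 and POLD1 come from another identifier version. Because siRNA control columns bear the numbers 2 and 3 but their labels 1 and 2, only their group was used.

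Genes with at least 0.5 RPKM in at least 2 of 4 libraries were tested on log2(RPKM + 1) with limma 3.58.1 (trend, R 4.3.3), two-sided, with Benjamini-Hochberg adjustment over all genes tested at a threshold of 0.05; fold changes are on that scale, which understates those of low genes. The scripts were tested on simulated data. At these depths 3 reads correspond to 0.0868 to 0.115 RPM, which covers counting error only. Alternatives were other pseudocounts, filters, scalings, a pooled spread, voom on the recovered reads, a replicate block and leaving out each library.

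The 53 genes and the lists were chosen with earlier results of these data known, so no p-value over a list is given. Of each role group and comparison, the 3 genes with the smallest p and any gene against its group's median are named with all values, and of each list of other genes the 3 with the smallest p. Further genes, ratios and the upstream stretches were chosen after their values were seen, as was the distance of 1 log2 unit between libraries.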

Additional observations from a re-analysis of the deposited data

How the results depend on the processing

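Over all results and settings, 893 values kept their direction and their side of the threshold, or moved by less than the limits set for counts and medians, 44 came to pass the threshold, 36 counts and medians moved further and 17 values reversed; the cause was not tested except where a setting uses fewer libraries or genes. With the spread pooled over 8 libraries, 64 genes passed after LY6K-AS knockdown and 214 after YWHAG knockdown, where 6 replication genes had an unadjusted p under 0.05 and a lower level and 2 a higher one (11.8% of all genes were lower). With the LNA values as deposited, 43 of the 53 genes passed the filter and their median was -0.46. With the GC trend removed, the median of deoxynucleotide supply after LY6K-AS knockdown was -0.86. POLD2 after LY6K-AS knockdown was -0.14 with the GC trend removed, -0.0205 with median-ratio scaling and -0.000526 with totals that leave out mitochondrially encoded genes.

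Leaving out 1 library at a time, the genes passing ran from 0 to 7853 after LY6K-AS knockdown (7853 without knockdown library 1, 4612 without library 2), from 0 to 718 after YWHAG knockdown and from 0 to 1201 for the difference, with 0 to 13 replication genes. The replication genes lower at an unadjusted p under 0.05 ran from 28 (without either LNA control, where 2.41 and 2.46% of all genes were) to 49 (30% of all genes without knockdown library 1 and 23.7% without library 2). After YWHAG knockdown they ran from 0 (without either siRNA control, 1.37 and 1.81% of all genes) to 30 (without YWHAG library 2, 19.8%). The replication genes' median after YWHAG knockdown ran from -0.37 to 0.068, with licensing from -0.22 to 0.12, helicase from -0.44 to 0.19, clamp and loader from -0.30 to 0.13 and deoxynucleotide supply from -0.28 to 0.12. Of the 53 genes, 20 turned from lower to higher without YWHAG library 1 and 5 from higher to lower without YWHAG library 2; after LY6K-AS knockdown GINS4 turned without library 1 and POLD2 without library 2. Among the genes named by the rule for single genes, those with a change of sign were RFC3 (-0.67 to 0.022), ORC6 (-0.13 to 0.35), CDC6 (-0.042 to 0.26), MCM3 (-0.22 to 0.52), GINS4 (-0.28 to 0.41) and RFC1 (-0.054 to 0.18) after YWHAG knockdown and POLD2 (-0.067 to 0.10) after LY6K-AS knockdown.

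With a replicate block in the LNA fit no gene passed (0 genes), 47 replication genes were lower at an unadjusted p under 0.05 and the median of the 53 was -0.66; same-numbered libraries share only a number (their differences correlated at r = 0.08 over 14662 genes). No paired analysis was possible because the siRNA control columns carry other numbers than their labels for the YWHAG comparison. As to depth, the fewest reads behind a value were 157.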
